A study of Caenorhabditis japonica with 3 samples.

Results

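In single embryos of *Caenorhabditis japonica*, 232 of 3955 genes with listed 3′ end reads met a rule for late transcripts with 1 listed peak. They were lower in the cell stages, at 60 to 100 minutes and at 140 to 290 minutes than at 300 to 430 minutes. These 232 genes, called the late genes here, were chosen by their pooled levels (CPM, the reads of a gene per 1000000 listed reads) in the same embryos. A gene was a member if it had exactly 1 listed 3′ end peak and a pooled level of at least 100 CPM over the embryos of 300 to 430 minutes. That level also had to be at least 3 times the pooled level at 140 to 290 minutes and at least 4 times the levels of the cell stages and of 60 to 100 minutes. Of the 3392 genes with 1 peak, 1366 reached 100 CPM late, so the late genes were a minority of the transcripts that old embryos held. The difference between late and earlier levels is what selected the members, and it is described below without a test.

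*C. japonica* is a nematode with males and females and a relative of *C. elegans*. Nematode embryos begin with RNA laid down by the mother, which is lost as the embryo's own genome is transcribed. In *C. elegans*, cell division is followed by morphogenesis, in which the ball of cells elongates into a worm, muscle starts to contract and the epidermis secretes the first cuticle, and many genes of differentiated tissues are first transcribed at that time. The sources do not say which morphological stages the *C. japonica* times correspond to. The files pair no gene identifier with a name, so no late gene is described by function and no tissue marker could be looked up.

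Embryos were cut from adult mothers, bleach-washed, staged at 4 cells and incubated at 20 °C. The sources state no strain, genotype or embryo sex. CEL-Seq, which barcodes the polyA RNA of each embryo and sequences 3′ ends, was run on 3 pools: an early library (1, 2 and 4 cells, then 10 to 130 minutes after the 4-cell stage, 16 embryos), a middle library (140 to 290 minutes, 16 embryos) and a late library (300 to 430 minutes, 14 embryos). Each time had 1 embryo, the embryo was the replicate, and each library was 1 time window, so library and age cannot be told apart between windows. The labels mention extra embryos at 330 and 340 minutes. The 2 columns for these times are out of barcode order, and which embryos they hold is not certain.

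Listed reads per embryo ran from 1890 to 404701 in the early library (median 46770), from 1719 to 454691 in the middle library (median 80480) and from 2305 to 354620 in the late library (median 73813). Of the 46 embryos, 14 had fewer than 0.25 of the median number of reads and are called shallow, among them those at 110 to 130, at 300 to 320 and at 390 and 400 minutes. The 3 deepest late embryos, at 340, 370 and 430 minutes, held 61.6% of the late reads and so weighed most in the pooled late level, while the 5 shallow late ones held 2.17%. Levels are shares of listed reads in whole embryos, so more cells of a type and more RNA per cell cannot be told apart.

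Together the late genes took 0.169% of the reads in the cell stages, 0.150% at 60 to 100 minutes, 2.18% in the middle library and 13.7% in the late library. The median member had 219 CPM late (quartiles 134 and 473), and members ran from 100.4 to 19779 CPM. Of the 232, 17 had at least 1000 CPM and 109 had under 200. The 5 most abundant held 36.9% of all late-gene reads in the late library. The ratio of the late to the middle level had a median of 9.64 (quartiles 4.92 and 18.9) and reached 456 among members with middle reads, and 3 members had 0 middle reads. In the whole early library 54 members had 0 reads and 37 had at least 20. The median member had 0 CPM in the cell stages and 2.08 CPM at 60 to 100 minutes, and the highest had 112 and 127 CPM. At the edge of the rule, the lowest member had 100.4 CPM and the next gene that met the other criteria 99.2. The smallest ratio of late to middle was 3.00 inside and 2.99 outside, and that of late to the higher early level was 4.22 inside and 3.97 outside.

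The summed level of the late genes was low and flat through the first embryos and was already higher within the middle library. It was 0.141%, 0.171% and 0.179% of reads in the 2-, 4- and 1-cell embryos, and lay between 0.150% and 0.245% in the 5 embryos of 10 to 50 minutes. At 60 to 100 minutes it lay between 0.135% and 0.186%. The 3 shallow embryos at 110 to 130 minutes held 0.317%, 0.177% and 0.349%, from only 58 late-gene reads in all. From 140 to 180 minutes the share was 0.393% to 1.10% (median 0.555%), and from 190 to 230 minutes 0.859% to 1.49% (median 0.962%). These 2 windows overlapped each other and lay above every embryo up to 130 minutes.

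Between the medians of neighbouring windows the largest ratio lay before the late library. From 240 to 290 minutes the 6 embryos held 1.66% to 6.40% (median 4.16%), all above the embryos of 140 to 230 minutes. Those at 240, 250 and 260 minutes held 2.68%, 1.66% and 2.36%, and those at 270, 280 and 290 minutes held 5.65%, 6.32% and 6.40%. The share was 7.77% at 300 minutes, the first embryo of the late library, with an exact 95% interval of 7.06% to 8.52% against 6.21% to 6.60% at 290 minutes. From 300 to 340 minutes it stayed between 7.77% and 8.69%, and from 350 minutes it ranged from 11.1% to 21.5%. The embryos at 410, 420 and 430 minutes were the highest of the 46, at 21.5%, 21.1% and 18.9%. A start after 300 minutes therefore does not describe the sum, which had reached 6.40% before the late library began.

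**Figure D1:**
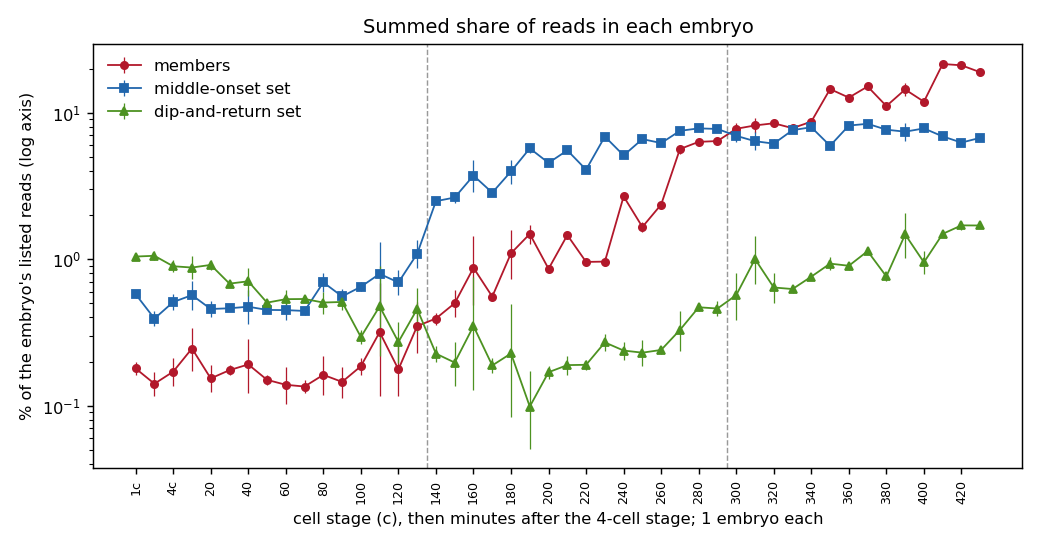
Share of each embryo's listed reads (log axis) taken by the 232 late genes, the 148 middle-onset genes and the 46 dip-and-return genes, at each cell stage (c) and time, with exact 95% counting intervals as bars and dashed lines at the library borders. The late genes lie below 0.4% until 140 minutes, reach 6.40% at 290 minutes and are highest from 410 minutes on.

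Without the 5 most abundant members the share was 1.40% at 240 minutes, 3.21% at 290, 4.91% at 300, 5.01% at 340 and 13.3% at 430 minutes. It did not climb steadily between these times, with 0.802% at 250, 6.70% at 310 and 4.02% at 330 minutes. In the middle and late libraries the 95% intervals of the summed share reached 0.0336 to 0.373 percentage points to either side in the 21 deeper embryos and 0.219 to 1.45 points in the 9 shallow ones. They cover counting error only, since no molecular identifiers are named.

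Sets of other transcripts abundant in old embryos are given for comparison. The levels that define these sets also shape their courses, so the differences from the late genes are a description. The 148 middle-onset genes met the same late and early criteria but had late levels under 3 times their middle levels. They held 5.11% of reads at 240 minutes, 6.95% at 300 minutes and 6.74% at 430 minutes, where the late genes held 2.68%, 7.77% and 18.9%. The 46 dip-and-return genes had late levels at least 3 times their middle levels but were also present early. They held 0.894% at the 4-cell stage, 0.238% at 240 minutes and 1.70% at 430 minutes.

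Gene by gene, most late genes followed the sum. The pooled level of the median member was 3.58 CPM at 140 to 180 minutes, 10.97 at 190 to 230, 36.3 at 240 to 290, 124 at 300 to 360 and 275 at 370 to 430 minutes. Over these 5 windows 155 of 232 members were not lower at any of the 4 steps. A step without change, as between windows without reads, is included in this count. At 140 to 180 minutes 99 members had no reads, and at 190 to 230 minutes 32. The highest window was 370 to 430 minutes in 205 members and 300 to 360 minutes in 27. That no member was highest in a middle window was favoured by the rule, which asked for a late level at least 3 times the middle one. In 125 members the level at 370 to 430 minutes was at least 2 times that at 300 to 360 minutes, and 1 member showed a 2-fold difference the other way. Already at 240 to 290 minutes 213 members were above their level at 190 to 230 minutes. These counts were not made over all genes and are a description of the members.

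The time at which single members came up was mostly spread from 240 minutes, in the middle library, into the late library. Onset was taken as the middle of the first 3 successive embryos whose pooled level reached 50% of the member's late level. Its median was 310 minutes (quartiles 280 and 350, range 150 to 400). The value of 150 minutes came from CJA03229, where it rested on 8 reads, and CJA41918. All other members had onsets from 240 minutes on. Onset fell at or before 280 minutes in 74 members, at 290 or 300 minutes in 24, at 310 to 350 minutes in 80 and from 360 minutes on in 54. An onset of 310 minutes was read from the shallow embryos at 300 to 320 minutes, with 5280, 2896 and 11241 reads. It can therefore rest on few reads per member, which also limits the median. Among the 55 members with at least 500 CPM late, where counting error is smaller, the median was 300 minutes, with 23, 6, 13 and 13 members in these classes.

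**Figure D2:**
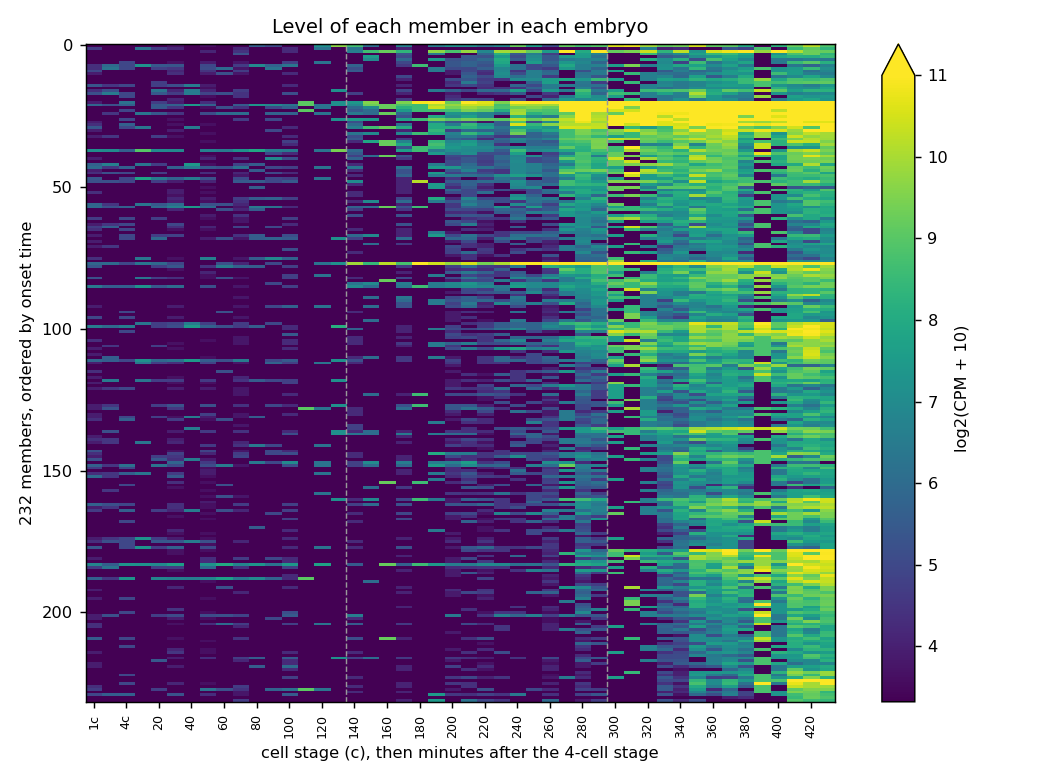
Level of each of the 232 late genes (rows, ordered by onset time and then by late level) in each of the 46 embryos (columns), as log2(CPM + 10), with dashed lines at the library borders. Members with early onsets are lit from 270 minutes, those at the bottom only from about 350 minutes on, and the shallow embryos at 310 and 390 minutes show as columns with many zeros.

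The order of the embryos within a library was not part of the rule, so rises within the late and within the middle library were tested. A single edgeR quasi-likelihood fit over all genes gave each library its own slope in log2 units per 10 minutes (per cell stage before 10 minutes). The same embryos set the pooled levels that chose the members, so the slopes are not wholly separate from the choice. In the late library 101 late genes rose and 1 fell, of the 205 that passed the filter on low counts. The background over all 3036 genes tested was 7.02% higher and 2.4% lower. Of the 205 members 185 had a positive slope, and the median was 0.18 per 10 minutes (quartiles 0.11 and 0.28), against 0.02 over all genes tested. Fitted without the filter, 115 of all 232 rose and 1 fell, against 6.65% of 3955 genes higher.

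Within the late library age went together with depth, since the embryos at 300 to 320 minutes were shallow, and their TMM scaling factors (1.43, 1.92 and 1.10) were above those of the 3 oldest embryos (0.71, 0.75 and 0.72). With library size alone in place of TMM, 79 late genes rose and 1 fell, and over all genes the calls turned from 213 higher and 73 lower to 148 higher and 172 lower. With the log2 number of reads as a covariate 99 rose and 1 fell, against 6.55% higher and 2.96% lower over all genes. Without the shallow embryos 81 of 232 tested rose and 1 fell, against 4.38% higher and 1.99% lower over all genes. DESeq2 in place of edgeR called 42 of 205 members higher and 1 lower, against 3.46% higher and 4.08% lower over all genes. A comparison of 370 to 430 with 300 to 360 minutes in place of the slope kept 130 members in the test and called 16 higher and 0 lower, against 0.954% higher over all genes. A filter by library kept 62 members and called 20 higher and 0 lower, against 3.93% higher over all genes, and it kept 22 of the 101 rising members, of which 20 rose again.

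Within the middle library 138 late genes rose and 1 fell of the 205 tested, where the background was 9.55% higher and 5.07% lower. The median slope of the members was 0.32 per 10 minutes (quartiles 0.17 and 0.44), against 0.01 over all genes tested, and 191 of 205 were positive. Without the filter 156 of 232 rose, against 9.13% of all genes. In this library barcode numbers descend with time, so barcode and age cannot be told apart. In the late library they ascend with time except at 330 and 340 minutes, so barcode and age largely go together there too. Members can pass the low-count filter through the late embryos, where the rule made them high, and many have few middle reads. A filter by library kept 62 members, and 56 of these rose and 0 fell, against 12.9% higher over all genes. Of the 138, 53 were among those tested, and all 53 rose again. This filter counts embryos of any library, so members can still pass it through the late embryos alone, and it does not remove that limit. DESeq2 called 78 of 205 higher and limma-trend 76, against 8.30% and 7.15% over all genes. A comparison of 220 to 290 with 140 to 210 minutes called 63 of 130 higher, against 4.77%. All 138 rose again with library size alone and with DESeq2 size factors.

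The comparison sets are given beside these counts as a description, since the levels that define them also separate their courses. Of 143 middle-onset genes tested, 10 rose and 4 fell in the late library and 53 rose and 2 fell in the middle library. Of 42 dip-and-return genes tested, 14 rose and 0 fell late, and 11 rose and 1 fell in the middle library. Of 927 other genes with at least 100 CPM late, 26 rose and 23 fell in the late library. The 41 genes with several peaks that met the same level criteria were left out by the rule. Of these, 21 rose and 0 fell late, and 32 rose and 0 fell in the middle library.

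The late genes were also grouped by the slopes that were called. In 76 members the middle slope alone passed the test, in 61 both slopes rose and in 39 the late slope alone rose. In 27 neither was called, and 1 member each fell in the middle library and rose late or the reverse. No such split was made over all genes, so these counts have no background beside them. The split depends on the tool, since DESeq2 repeated 42 of the 101 late and 78 of the 138 middle rises, and limma-trend 93 and 74. Passing in one library and not in the other does not show a difference between the slopes, which was tested separately below. Onset, ratio and level come from the same counts as the slopes, and the rule used the ratio. Their order over the classes therefore follows largely from the grouping and is a description. The members that rose in the middle library alone had a median onset of 280 minutes and a median ratio of late to middle of 6.03. For those that rose in both libraries these values were 330 minutes and 14.6, and for those that rose late alone 360 minutes and 41.3. At 240 to 290 minutes the median member stood at 29.2% of its late level in the first class, 12.6% in the second and 2.66% in the third. The 27 members without a call were higher from the start, with a median of 28.7 CPM at 140 to 180 minutes and 17.1% of their late level.

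**Figure D3:**
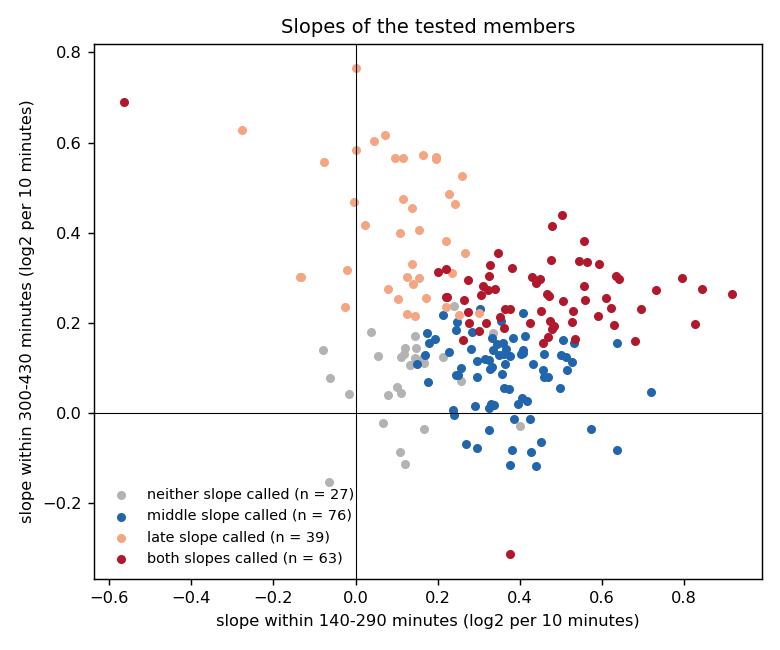
Slope within the late library against slope within the middle library, in log2 per 10 minutes, for the 205 late genes tested, coloured by which slopes passed an adjusted p of 0.05. Most points lie in the upper right quadrant. CJA15981, at 0 and 0.76, is the highest, and CJA03229, at -0.56 and 0.69, lies farthest to the left.

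**Figure D4:**
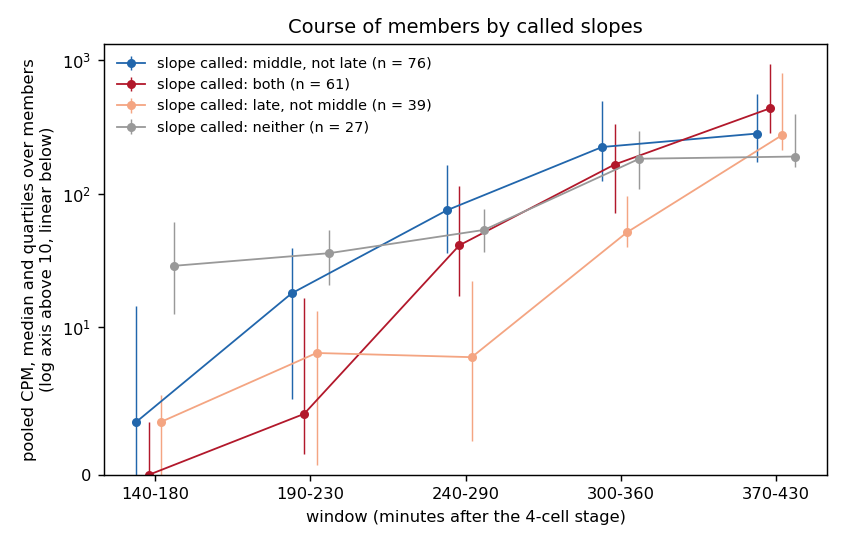
Median pooled CPM over members (points) with quartiles (bars) in 5 windows, on an axis that is linear below 10 and logarithmic above, for members grouped by the slopes that were called. The 39 members called in the late library alone lie at 7.95 CPM at 240 to 290 minutes and 275 at 370 to 430 minutes.

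The difference between the late and the middle slope was tested in the same edgeR fit. It was negative in 43 late genes and positive in 9 of the 205 tested (background 3.62% lower and 1.98% higher), with a median of -0.15 per 10 minutes. Of the 76 members called in the middle library alone, 27 had the lower late slope, as did 15 of the 61 called in both. Of the 39 called late alone, 8 had the higher late slope. These classes were formed from the same slopes, so the directions within them follow largely from the grouping and are a description. The direction depended on the tool. Limma-trend, on log2 CPM with a prior count of 2, called 48 members higher and 10 lower, against 2.90% higher and 1.55% lower over all genes. The cause of this reversal was not tested. With library size alone 8 were higher and 72 lower, and over all genes the split moved from 60 higher and 110 lower to 57 and 220.

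Before the middle library, 1 late gene passed the test of 110 to 130 against 10 to 50 minutes. The embryos at 10 to 50 and at 110 to 130 minutes played no part in the choice, and 218 members passed the filter of the fit that compared them. The edgeR test called 1 higher and 0 lower at 110 to 130 minutes, against 1.47% higher and 2.35% lower of 3276 genes, and 4 members had an unadjusted p under 0.05. With 24042 reads in these 3 embryos, 195 of 232 members had 0 reads, and 3 reads correspond to 125 CPM. Lower levels rest on 1 or 2 reads at this depth, where 1 read corresponds to 41.6 CPM. At 10 to 50 minutes 96 members had 0 reads. Members can pass the filter through older embryos, and those without reads in these windows could not be called, so their count is not read against the background. Over all genes the split was 48 higher and 77 lower with TMM, 71 and 63 with library size alone and 55 and 183 with DESeq2 size factors.

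By rule, the members named are the 2 most abundant and at most 2 per direction with the largest called change in each test. CJA31171 was the most abundant, at 19779 CPM pooled over the late library. It had 13 reads in the whole early library, with 0 reads in 9 of 16 embryos. Its level ran from 0 to 12267 CPM (median 1993) in the 16 middle embryos and from 4144 to 29263 CPM (median 20445) in the 14 late ones. The 2 ranges overlapped, since the 2 latest middle embryos (10140 and 12267 CPM) lay above those at 300 to 320 minutes (7386, 4144 and 8807 CPM). The slope was 0.36 ± 0.05 (SE) per 10 minutes in the middle library (edgeR adjusted p = 1.26e-08) and 0.19 ± 0.06 in the late library (edgeR adjusted p = 0.0350). The late call was lost with library size alone (adjusted p = 0.0540), without the filter (0.0618), without the embryo at 300 minutes (0.149) and without the shallow embryos (0.615).

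CJA12144, the second most abundant, had 10035 CPM late. It lay between 0 and 134 CPM in the early embryos, between 337 and 6408 CPM (median 1423) in the middle ones and between 4144 and 24492 CPM (median 11605) in the late ones. It was at 1058 CPM at 230 minutes and 5989 CPM at 240 minutes, and the 6 embryos from 240 to 290 minutes (3629 to 6408 CPM) did not overlap those from 140 to 230 minutes (337 to 2270 CPM). Within the middle library it rose by 0.24 ± 0.05 per 10 minutes (edgeR adjusted p = 3.78e-05). Its late slope was 0.08 ± 0.05 (edgeR adjusted p = 0.379), and at 430 minutes it was at 5909 CPM, after 22565 and 24492 at 410 and 420 minutes.

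CJA15981 had the steepest late rise. It had 0 reads in all 32 early and middle embryos and in those at 300, 310 and 320 minutes. The level was 23.2 CPM at 330 minutes and 21.1 at 340, then 325, 124, 316, 157, 434 and 446 CPM from 350 to 400 minutes, and 2817, 5922 and 2728 CPM at 410, 420 and 430 minutes. All 3 oldest embryos lay above every other one. The slope was 0.76 ± 0.08 per 10 minutes (edgeR adjusted p = 1.66e-09). Set against 3 reads over the whole middle library, its late level was at least 616-fold higher.

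CJA03229 was low in most embryos and highest from 390 minutes on. Its 9 middle reads came from 2 embryos, 8 of them from that at 140 minutes (69.9 CPM). Late it was at 0 to 89.0 CPM up to 380 minutes, then at 434 CPM (1 read), 0, 355, 542 and 317 CPM from 390 to 430 minutes. The late slope was 0.69 ± 0.09 (edgeR adjusted p = 3.07e-08). The negative middle slope of -0.56 ± 0.10 (edgeR adjusted p = 5.20e-06) rested on the embryo at 140 minutes, since the adjusted p was 0.224 without it, and 0.488 with limma-trend. Its late level was 23.1 times the middle one, with an exact counting interval of 11.9 to 51.4.

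CJA35058 was the member that rose and fell again. It lay between 0 and 184 CPM at 240 to 290 minutes (median 135), between 89.0 and 691 CPM at 300 to 360 minutes (median 517), at 493.5 CPM at 370 minutes, and between 0 and 43.4 CPM at 380 to 430 minutes. The last 6 embryos did not overlap any of the 8 before them. It rose by 0.38 ± 0.08 per 10 minutes in the middle library (edgeR adjusted p = 0.000520), and its late slope was -0.31 ± 0.08 (edgeR adjusted p = 0.00618). The late fall missed the threshold without the embryos at 330 and 340 minutes (adjusted p = 0.0839) and without that at 430 minutes (0.0691).

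CJA16051 and CJA07461 had the steepest middle rises, each from few reads at the end of the middle library. CJA16051 had 0 reads in 13 of 16 middle embryos, 89.7 CPM at 280 and 126 CPM at 290 minutes, and 0 to 1497 CPM (median 299) late. Its middle slope of 0.92 ± 0.14 (edgeR adjusted p = 1.27e-06) rested on 29 reads, with adjusted p = 0.215 from DESeq2 and 0.0911 from limma-trend. CJA07461 had 0 reads in 12 of 16 middle embryos, 313, 80.8 and 78.5 CPM at 270, 280 and 290 minutes, and 0 to 1973 CPM (median 440) late. Its middle slope of 0.84 ± 0.13 (edgeR adjusted p = 1.30e-06) rested on 30 reads, with adjusted p = 0.142 from DESeq2. Both also rose late, by 0.26 ± 0.06 and 0.28 ± 0.06 (edgeR adjusted p = 0.00344 and 0.00136), calls that DESeq2 did not make (0.421 and 0.361). The late level was 21.9 times the middle one in CJA16051 (interval 15.1 to 33.03) and 69.8 times in CJA07461 (48.7 to 104).

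CJA41918 was the member called before the middle library. It had 2 reads in the 5 embryos of 10 to 50 minutes and 8 reads at 110 to 130 minutes, with 0, 136 and 806 CPM in the 3 shallow embryos. The log2 difference was 6.30 ± 1.28 (edgeR adjusted p = 0.00149), with adjusted p = 0.0505 from limma-trend and 0.284 without the embryo at 130 minutes. It then lay between 0 and 570 CPM in the middle library (median 115) and between 0 and 1727 CPM in the late library (median 569). Its middle and late slopes were 0.07 ± 0.05 and -0.02 ± 0.06 (edgeR adjusted p = 0.438 and 0.917).

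**Figure D5:**
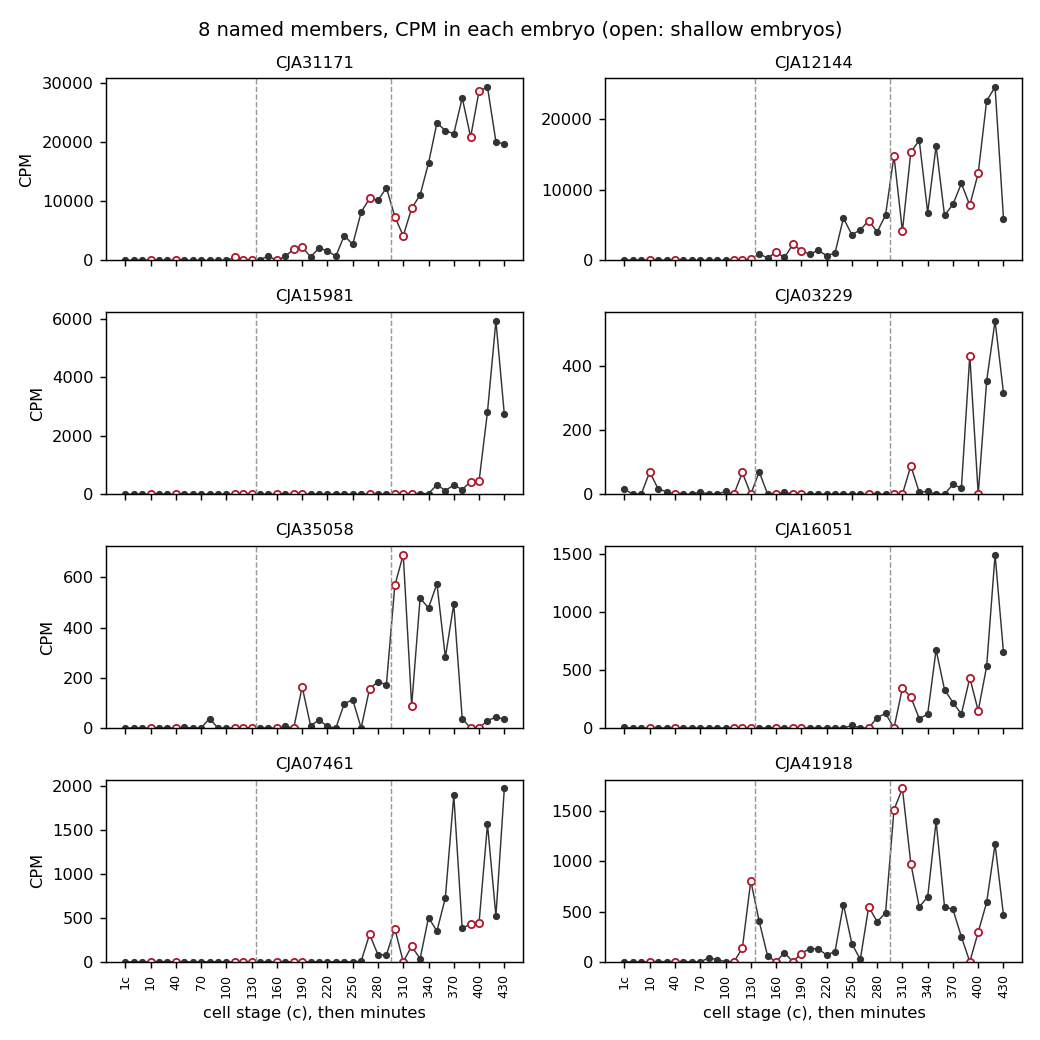
CPM of the 8 named late genes in each of the 46 embryos, with open symbols for shallow embryos and dashed lines at the library borders; each panel has its own linear axis from 0. CJA15981 is at 0 before 330 minutes and highest at 410 to 430 minutes, and CJA35058 is high from 300 to 370 minutes and low after it.

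The genes outside the members whose levels followed the members' summed CPM most closely over the 30 middle and late embryos were CJA02183 (Spearman's rho 0.93) and CJA15342 (rho 0.92), given as a description. CJA02183 met the same level criteria with 118 CPM in the middle and 1317 CPM in the late library but has 2 listed peaks. CJA15342 has 3 listed peaks and a late level 2.77 times its middle level. These embryos share libraries and depth, which enter such correlations.

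Since members have 1 listed peak, most of their reads fell in it: a median of 95.1% per member, and 94.1% over all genes with 1 peak. In the 170 members with at least 20 reads in both libraries the median share in the peak was 93.6% in the middle and 95.4% in the late library. The deposited location of the peak within the gene had a median of 3487.5 in the members and 2724.5 over all genes with 1 peak, and the file does not state its origin or direction.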

How the data were processed

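The deposited values are raw read counts, whole numbers for every 3′ peak and for each gene in total; per the file headers they are not normalized. HTSeq 0.5.4p3, Bowtie2 2.1.0 and CASAVA 1.8 appear in the submitters' processing notes without roles. For build, annotation and peak calling: not given in the sources used here. A deposited sheet links embryos to times and libraries.

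The totals hold 3955 genes, so depth here means listed reads. CPM values were taken over all listed genes. Tests used edgeR 4.0.16 in R 4.3.3 (filterByExpr with the design, TMM, two-sided quasi-likelihood F test, Benjamini-Hochberg over all genes tested, threshold 0.05). All 46 embryos entered each fit: slopes per library, or 7 windows. Standard errors are the log2 value divided by the square root of F. The fit of the late slope was also run on simulated counts with known slopes, and the outcome is not reported here. Exact Clopper-Pearson intervals came from scipy 1.17.1. Alternatives used DESeq2 1.42.0 and limma 3.58.1.

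The members, comparison sets and lists were chosen with earlier results of these data known. Lists of gene names were left out, as no identifiers carry names. The rule for named genes took the 2 members of highest late CPM and up to 2 per direction and test with the largest called change. The test of the difference between slopes, the depth covariate, the filter by library and leaving out the embryos at 140, 290, 300 or 430 minutes were chosen after seeing the data.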

Additional observations from a re-analysis of the deposited data

Results flagged for a closer look

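Within windows of 4 to 10 embryos, 12 of 54 groups of a named late gene had 1 embryo set apart from the rest by Dixon's test, where chance gives about 1 in 20 per group of continuous values. In groups of mostly zeros 1 read is enough to set an embryo apart, so the 12 are not read against that rate. CJA15981 had 324.9 CPM at 350 minutes, the highest of 300 to 360 minutes. CJA03229 had 70.13 CPM at 10 minutes, 69.93 at 140 minutes and 88.96 at 320 minutes. CJA35058 had 2.471 CPM at 50 minutes, 37.72 at 80, 164.2 at 190 and 493.5 at 370 minutes. CJA16051 had 1497 CPM at 420 minutes. CJA07461 had 2.622 CPM at 30 minutes and 312.9 at 270 minutes, and CJA41918 had 402.1 CPM at 140 minutes. Of these, the values of CJA03229 at 10 and 320 minutes, of CJA35058 at 50 and 80 minutes and of CJA07461 at 30 minutes were 1 read each.

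The late slope differed from the middle slope by edgeR's test in 4 named late genes, in log2 per 10 minutes. The difference was 1.25 in CJA03229 (adjusted p = 8.06e-11), -0.69 in CJA35058 (3.63e-05), -0.65 in CJA16051 (0.00476) and -0.57 in CJA07461 (0.0116). Over the alternatives the difference ran from 0.39 to 1.42 in CJA03229, from -0.89 to -0.49 in CJA35058, from -0.78 to 0.14 in CJA16051 and from -0.72 to 0.16 in CJA07461.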

How the results depend on the processing

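The number of members with a late slope, 102, of 205 tested, was 43 of 205 with DESeq2, 16 of 130 with older against younger embryos in place of the slope and 20 of 62 with a filter by library. The 139 of 205 with a middle slope were 79, 63 and 56 of the same numbers tested, and 76 of 205 with limma-trend. With the filter by library fewer members were tested, and the share rising in the middle library was 90.3%, against 67.3%. Under the other alternatives the counts were 68 to 124 and 127 to 157. The 52 members whose slopes differ became 80 with library size alone, 32 with DESeq2 and 32 with the filter by library, and were 41 to 77 under the others. With limma-trend they were 58, of which most were higher late, the opposite direction. The 1 member called at 110 to 130 minutes became 0 with limma-trend and 0 to 1 with an embryo left out in turn, 0 without that at 130 minutes. The rule chose 232 genes, 123 with at least 200 CPM late, 158 to 312 under the other changes and 229 to 233 with an early embryo left out in turn. Membership also shifted: with the mean of the embryos' CPM in place of pooled reads it chose 221 genes, of which 185 were among the 232. The cause of these changes was not tested. The setting without shallow embryos was not run for 110 to 130 minutes, where all 3 are shallow. Depth limits what a window can show: 3 reads corresponded to 125 CPM at 110 to 130 minutes and to 3.20 CPM at 370 to 430 minutes. No paired analysis was possible because each time has 1 embryo.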
